A study of Mus musculus with 9 samples.

Results

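A set of 10 genes of Toll-like receptors, among them the imiquimod receptor, and of proteins that act with them was examined in the dermis of mouse ears. They were Tlr7, Tlr8, Tlr9, Tlr3, Tlr2, Tlr4, Unc93b1, Myd88, Irak3 and Irf5, taken by symbol as 10 of the 52550 genes in the count table, and all 10 were among the 22430 genes that passed the filter on low counts. RNA was sequenced from 9 libraries of mice labelled C57BL/6 (C57BL/6J in the study's methods), aged 8 weeks and "wide type", in 3 groups of 3. VAS+H2O mice had Vaseline on the ear for 5 days and water by gavage for 10 days, beginning 5 days before the Vaseline. IMQ+H2O mice had imiquimod cream in place of Vaseline, with the same water. IMQ+XYF mice had imiquimod cream as well, and in place of water a Chinese herbal decoction named Xiao-Yin-Fang (XYF), 200 µl a gavage, labelled 23.3 mg/g. The study's methods describe male mice, dermal sheets peeled from the epidermis, and RNA from the ears of more than 1 mouse. The number of mice given there for the RNA is below the 3 libraries of a group. Whether 1 library pooled mice, or libraries shared mice, is not clear from them. The libraries may therefore not be independent animals, and p-values measure only the spread between these libraries.

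Toll-like receptors (TLRs) recognise molecules of microbes and of damaged cells. TLR7, TLR8, TLR9 and TLR3 sit in endosomes and read nucleic acids, whereas TLR2 and TLR4 face the outside of the cell and bind lipoproteins and lipopolysaccharide. UNC93B1 carries the endosomal receptors out of the endoplasmic reticulum, MYD88 links most TLRs to kinases of the IRAK family, IRAK3 (IRAK-M) restrains that relay, and IRF5 is a transcription factor at its end. Imiquimod is a small imidazoquinoline that activates TLR7, which is known from plasmacytoid dendritic cells, macrophages and B cells.

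RefSeq promoter windows on GRCm38.p6 (250 bases before to 50 bases after a transcription start) were matched for 7 of the 10 genes, in 8 windows. The windows of Irak3 and Tlr9 are shown because these were the only genes of the 10 whose libraries did not overlap between groups. Each runs 5′ to 3′ along its gene's strand, Irak3 at chr10:120202081-120202380 on the minus strand and Tlr9 at chr9:106222348-106222647 on the plus strand, and capitals mark motif matches.
Irak3: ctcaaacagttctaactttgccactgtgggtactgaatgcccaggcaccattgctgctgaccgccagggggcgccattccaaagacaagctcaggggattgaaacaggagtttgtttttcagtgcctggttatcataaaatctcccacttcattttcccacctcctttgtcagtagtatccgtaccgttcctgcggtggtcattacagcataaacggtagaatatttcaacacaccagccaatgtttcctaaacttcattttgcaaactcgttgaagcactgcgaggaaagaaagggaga
Tlr9: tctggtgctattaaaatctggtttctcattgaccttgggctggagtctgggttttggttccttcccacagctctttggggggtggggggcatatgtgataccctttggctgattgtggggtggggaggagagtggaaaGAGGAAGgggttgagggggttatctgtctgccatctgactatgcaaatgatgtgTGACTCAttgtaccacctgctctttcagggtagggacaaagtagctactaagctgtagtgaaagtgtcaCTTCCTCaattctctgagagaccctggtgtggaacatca
Both strands were searched for GAGGAAG (PU.1), TGANTCA (AP-1) and CACGTG (E-box), where N is any base, for GAAA repeated after 2 free bases (interferon-stimulated response element), and for GGG and TTTCC with 2 free bases between (NF-kB). Tlr9 held GAGGAAG from base −112 and, on the other strand, from base +12, and an AP-1 match from base −58, and these 3 matches did not overlap. Among all 32851 windows, 13.6% held the PU.1 letters and 7.81% the AP-1 letters. The Irak3 window shown held none of the 5 motifs, and its second start, at 120201597, had an E-box from base +6 (in 7.15% of windows). Myd88 had an interferon-stimulated response element from base −40 (3.44% of windows) and Tlr3 an NF-kB match from base −211 (1.63%). Irf5, Tlr2 and Tlr8 held none of the 5. These matches describe letters in a window and say nothing of binding.

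Total counts ran from 28756305 to 79836881 per library, and values are given as CPM, the count of a gene relative to the library total, scaled by TMM factors. A floor of 3 counts corresponded to between 0.0373 and 0.103 CPM, which covers counting error only. Even the lowest count of the 10 genes, 49 for Tlr9 in IMQ+H2O replicate 1, was above this floor. Summed fibroblast markers (Col1a1, Col1a2, Col3a1, Dcn, Lum, Pdgfra) ran from 10370 to 25350 CPM, so markers of dermis were present in every library. Keratinocyte markers were also present, at 13920 CPM in IMQ+XYF replicate 1 and from 2027 to 6030 CPM in the others. In IMQ+XYF replicate 1 they exceeded the fibroblast sum of 11200 CPM, so that library also held much epidermal RNA. Skeletal muscle markers ranged from 62.5 to 1013 CPM and cartilage markers from 239 to 1497 CPM. RNA of a whole tissue was measured, so that fewer cells of a type and less RNA per cell cannot be told apart.

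Levels can be compared between genes only per length, as CPM per kilobase of exon (GENCODE vM21). On this scale Myd88 and Unc93b1, which serve several receptors, stood above the receptors themselves. In VAS+H2O, Myd88 had a level of 24.3 ± 4.40 and Unc93b1 of 18.5 ± 0.573 (SD, n = 3), followed by Tlr2 at 12.0 ± 4.82, Irak3 at 7.51 ± 0.876, Irf5 at 7.02 ± 1.23 and Tlr3 at 5.49 ± 2.35. Tlr4 had a level of 1.82 ± 1.90, and the 3 receptors for single-stranded RNA and CpG DNA were lowest, with Tlr7 at 1.22 ± 0.472, Tlr8 at 0.722 ± 0.246 and Tlr9 at 0.601 ± 0.0455. The libraries of Myd88, Unc93b1 and Tlr2 were apart from each other in this group, whereas each neighbouring pair from Tlr2 down to Tlr9 overlapped. In IMQ+H2O, Irak3 at 11.9 ± 1.72 stood above Tlr2 at 8.06 ± 1.64 without overlap, and Tlr4 at 4.17 ± 0.474 stood above Tlr8 at 1.06 ± 0.355, Tlr7 at 0.936 ± 0.466 and Tlr9 at 0.661 ± 0.209. The same order held in IMQ+XYF, where Myd88 had 31.3 ± 3.99 CPM per kilobase and Tlr9 had 0.393 ± 0.0360. Tlr8 and Tlr7 overlapped in every group.

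**Figure D1:**
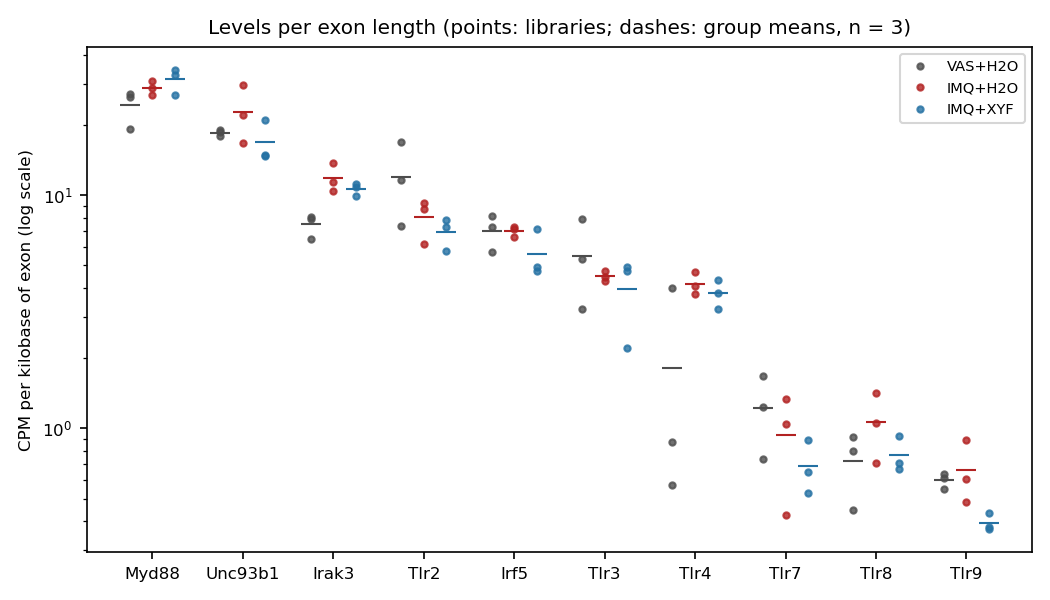
The plot of levels per exon length gives CPM per kilobase of exon on a log axis for each of the 10 genes, with a point per library and a dash at the group mean (grey VAS+H2O, red IMQ+H2O, blue IMQ+XYF). Myd88 lay at 24.3 in VAS+H2O and Tlr7, Tlr8 and Tlr9 lay at 1.22, 0.722 and 0.601.

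The groups were compared pairwise in a single edgeR quasi-likelihood fit, with a call at a Benjamini-Hochberg adjusted p of 0.05 or lower and an absolute log2 fold change of 1 or higher. None of the 10 genes was called by edgeR in any of the 3 comparisons, nor by DESeq2. The change by imiquimod (IMQ+H2O against VAS+H2O) had 0 of 10 called, where 0.994% of all tested genes were called by edgeR and 3.83% by DESeq2. At an unadjusted p under 0.05, 1 gene was higher and 0 were lower, against 10.1% and 10.8% of all tested genes. Groups did not overlap for 1 gene upward and 0 downward, against 15.1% and 16.5% of all tested genes. The change by XYF (IMQ+XYF against IMQ+H2O) had 0 of 10 called, with a background of 0.00892% for edgeR and 1.17% for DESeq2, and at an unadjusted p under 0.05 it had 0 higher and 1 lower, against 6.35% and 5.39%. Here 0 genes were apart upward and 1 downward, against 9.22% and 8.74%. IMQ+XYF against VAS+H2O had 0 of 10 called against 1.2% for edgeR and 3.18% for DESeq2, and 2 higher and 2 lower at an unadjusted p under 0.05 against 9.58% and 8.76%, while 1 gene was apart upward and 1 downward, against 11.7% and 10.3%. The median log2 fold change of the 10 genes was 0.20 by imiquimod, −0.27 by XYF and −0.23 in the treated group against the control, beside −0.02, 0.01 and −0.02 for all tested genes. By XYF 9 of 10 fitted values were negative, Myd88 being the exception, where 11364 of all 22430 tested genes had positive ones. By imiquimod 7 of 10 were positive, beside 10710 of 22430. The 10 genes were measured in the same libraries, so these signs are not independent. Each pair of comparisons shares a group of libraries, so their values are given side by side and were not correlated.

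**Figure D2:**
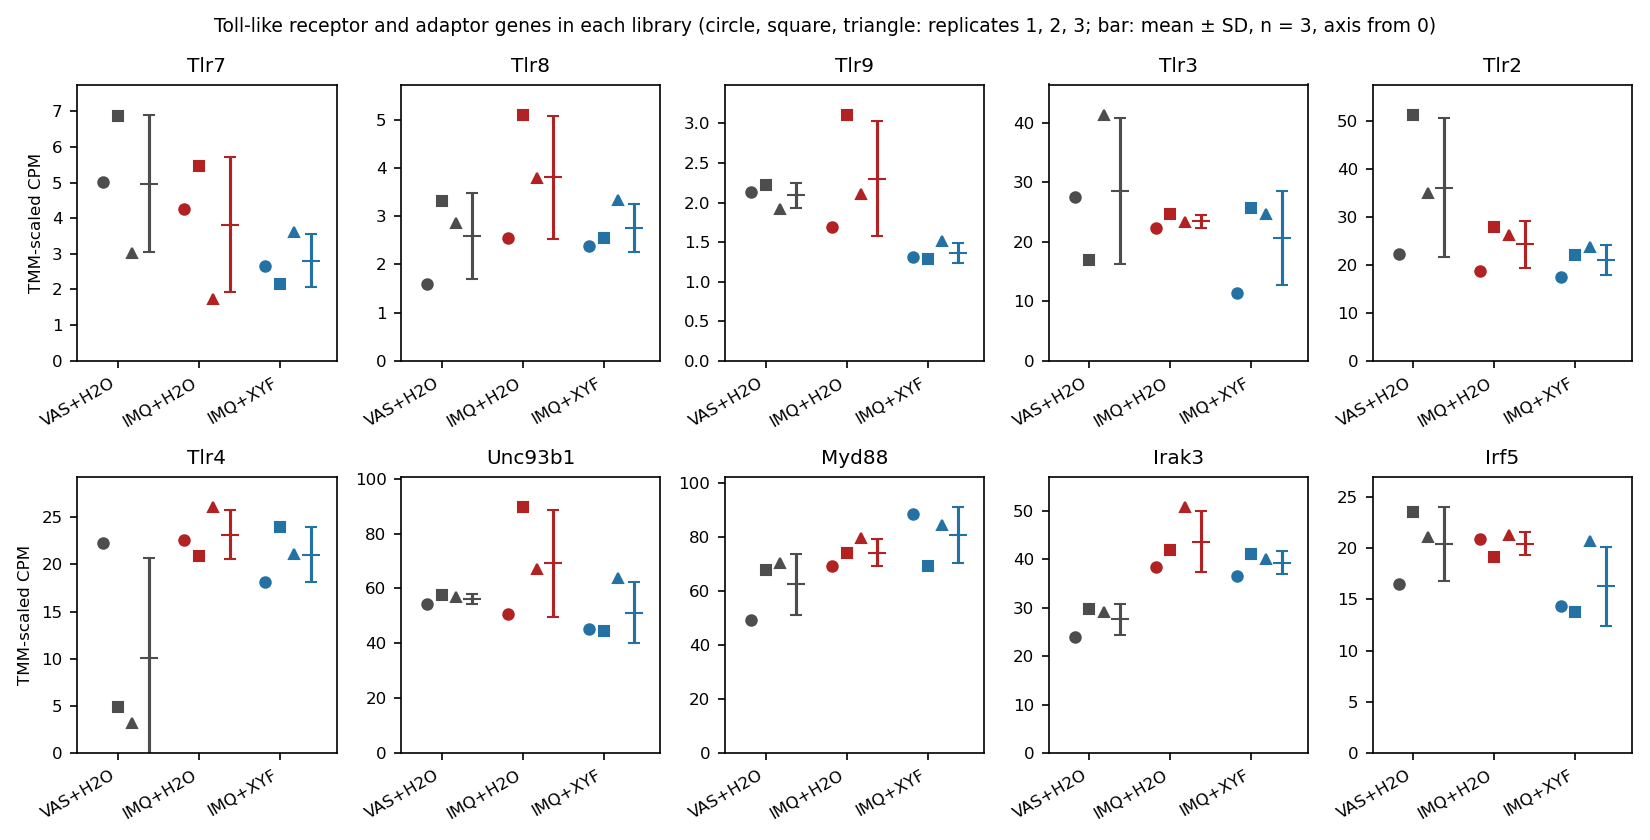
The plot of TMM-scaled CPM has a panel per gene and a symbol per library (circle, square and triangle for replicates 1, 2 and 3), with bars at the mean ± SD (n = 3), drawn from 0 upward. The Irak3 libraries of IMQ+H2O and IMQ+XYF lay from 36.6 to 50.7 CPM, above the VAS+H2O libraries at 23.9 to 29.7, and the Tlr4 level of VAS+H2O replicate 1, 22.2 CPM, stood apart from its group.

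Tlr7 (ENSMUSG00000044583), the receptor for imiquimod and for single-stranded RNA, lies on the minus strand of chromosome X from 167304929 to 167330558. Its level was 5.02, 6.86 and 3.01 CPM in VAS+H2O replicates 1, 2 and 3, then 4.27, 5.46 and 1.74 CPM in IMQ+H2O, and 2.65, 2.16 and 3.62 CPM in IMQ+XYF. These values rested on 89 to 247 counts a library. All groups overlapped, with IMQ+H2O replicate 3 the lowest of the 9 libraries and VAS+H2O replicate 2 the highest. The log2 fold change of Tlr7 by imiquimod was −0.38 (SE 0.44) with a 95% interval from −1.38 to 0.63 (edgeR adjusted p = 0.661). Without IMQ+H2O replicate 3 it was −0.01. By XYF it was −0.44 (interval −1.45 to 0.57, edgeR adjusted p = 0.711), and against the control the treated group gave −0.82 (interval −1.82 to 0.19, edgeR adjusted p = 0.374). The intervals allow both a fall past the size limit and a small rise, and no change of the receptor's transcript was detectable at this spread.

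Tlr8 (ENSMUSG00000040522), a receptor for RNA breakdown products next to Tlr7 on chromosome X (167242696 to 167264329, minus strand), had 1.60, 3.31 and 2.85 CPM in VAS+H2O. It had 2.55, 5.09 and 3.78 CPM in IMQ+H2O, and 2.39, 2.54 and 3.33 CPM in IMQ+XYF. The 2 highest libraries were IMQ+H2O replicates 2 and 3, and the groups overlapped. Its log2 fold change by imiquimod was 0.56 ± 0.34 (SE), with an interval from −0.20 to 1.32 (edgeR adjusted p = 0.370), and by XYF it was −0.47 (interval −1.23 to 0.29, edgeR adjusted p = 0.585). Thus the fitted values of Tlr7 and Tlr8 by imiquimod had opposite signs, with intervals that overlapped from −0.20 to 0.63. The ratio of the Tlr8 to the Tlr7 level per kilobase was 0.363, 0.548 and 1.08 in VAS+H2O, then 0.679, 1.06 and 2.48 in IMQ+H2O, and 1.03, 1.34 and 1.05 in IMQ+XYF. This ratio overlapped between all groups.

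Tlr9 (ENSMUSG00000045322), the receptor for unmethylated CpG DNA, lies on the plus strand of chromosome 9 from 106222598 to 106226883. It had 2.13, 2.22 and 1.92 CPM in VAS+H2O, 1.69, 3.11 and 2.11 CPM in IMQ+H2O, and 1.31, 1.28 and 1.51 CPM in IMQ+XYF. All 3 IMQ+XYF libraries were lower than the other 6. By XYF, Tlr9 was the 1 gene of the 10 whose groups did not overlap. The log2 fold change of Tlr9 was −0.75 (SE 0.26) with an interval from −1.33 to −0.17, at an unadjusted p of 0.0166 in edgeR that did not pass the adjustment (edgeR adjusted p = 0.378, from 0.146 with DESeq2 to 0.617 over the alternatives). Without IMQ+H2O replicate 2, the highest library, it was −0.47. Against VAS+H2O the treated group gave −0.61 (interval −1.19 to −0.03, edgeR adjusted p = 0.246), again without overlap. By imiquimod the value was 0.14 (interval −0.43 to 0.72, edgeR adjusted p = 0.784). Summed macrophage markers moved the same way as Tlr9 by XYF, with 699 to 1117 CPM in IMQ+H2O and 566 to 701 CPM in IMQ+XYF. Their fitted change was negative for 10 of 10 markers, 4 of them at an unadjusted p under 0.05, with a median log2 fold change of −0.57. In the treated group against the control, 5 of the 10 had positive fitted changes, with a median of −0.06. By XYF the endothelial, mast cell, inflammatory monocyte and skeletal muscle lists also had only negative fitted changes. Their medians were −0.61, −0.62, −0.34 and −1.7. Cartilage and Langerhans cell lists had only positive ones. The part of these lists in the Tlr9 values was not tested.

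Tlr3 (ENSMUSG00000031639), the receptor for double-stranded RNA, signals through another adaptor than MYD88 and lies on chromosome 8 from 45395665 to 45411080 on the minus strand. Its level was 27.6, 16.9 and 41.3 CPM in VAS+H2O, 22.3, 24.6 and 23.3 CPM in IMQ+H2O, and 11.5, 25.7 and 24.7 CPM in IMQ+XYF. The control libraries spread more widely than the IMQ+H2O libraries, at a mean of 28.6 ± 12.2 against 23.4 ± 1.16 CPM (SD, n = 3), and the lowest value was that of IMQ+XYF replicate 1. The log2 fold changes of −0.29 by imiquimod (interval −1.10 to 0.52, edgeR adjusted p = 0.678) and −0.19 by XYF (interval −0.999 to 0.627, edgeR adjusted p = 0.859) were within this spread. An antisense gene, Gm45542, shares 381 bases of exon with Tlr3, and its level reached at most 0.218 CPM.

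Tlr2 (ENSMUSG00000027995), the receptor for bacterial lipoproteins on chromosome 3 (83836272 to 83841767, minus strand), had the highest level per length of the 6 receptors in every group. It had 22.2, 51.2 and 34.9 CPM in VAS+H2O, 18.7, 28.0 and 26.2 CPM in IMQ+H2O, and 17.5, 21.9 and 23.7 CPM in IMQ+XYF. VAS+H2O replicates 2 and 3 were above all 6 libraries with imiquimod, and VAS+H2O replicate 1 was among them. The log2 fold change was −0.57 by imiquimod (SE 0.29, interval −1.22 to 0.08, edgeR adjusted p = 0.292) and −0.21 by XYF (interval −0.86 to 0.44, edgeR adjusted p = 0.793). In the treated group against the control it was −0.78, with an interval from −1.43 to −0.13 and an edgeR adjusted p of 0.193.

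Tlr4 (ENSMUSG00000039005), the lipopolysaccharide receptor on chromosome 4 (66827584 to 66930284, plus strand), had the highest ratio of the highest to the lowest library within a group among the 10 genes. It had 22.2, 4.86 and 3.18 CPM in VAS+H2O replicates 1, 2 and 3, from 917, 175 and 237 counts. It had 22.6, 20.9 and 26.0 CPM in IMQ+H2O and 18.1, 23.9 and 21.1 CPM in IMQ+XYF. The level of VAS+H2O replicate 1 was thus inside the range of the imiquimod libraries, whereas replicates 2 and 3 were far below it, and the highest control value was 7.01 times the lowest. The log2 fold change by imiquimod was 1.20 (SE 0.61) with an interval from −0.18 to 2.59 (edgeR adjusted p = 0.294). It was 2.53 and called without VAS+H2O replicate 1 (edgeR adjusted p = 0.0209), 0.87 without replicate 2 and 0.77 without replicate 3, and its adjusted p ran up to 0.499 over the alternatives. The treated group against the control gave 1.06 (edgeR adjusted p = 0.401), and 2.40 without VAS+H2O replicate 1 (edgeR adjusted p = 0.0185, up to 0.650 over the alternatives). By XYF the value was −0.14 (interval −1.50 to 1.22, edgeR adjusted p = 0.942). Macrophage markers summed to 606 CPM in VAS+H2O replicate 1, between 580 CPM in replicate 3 and 839 CPM in replicate 2, and inflammatory monocyte markers summed to 38.6 CPM, between 30.9 and 41.0 CPM. For other lists replicate 1 was at an end of its group. It had the highest cartilage sum, 1497 CPM, and the lowest fibroblast and endothelial sums, 14590 and 554 CPM. The part of any of these lists in its Tlr4 level was not tested.

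**Figure D3:**
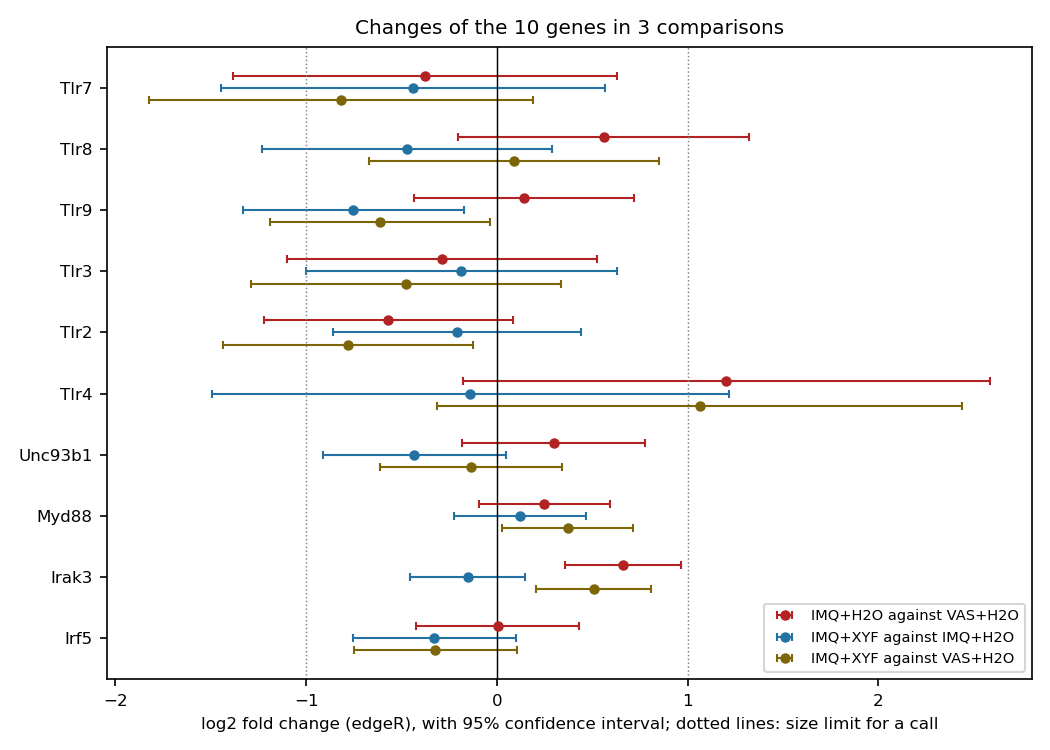
The plot of log2 fold changes shows the edgeR estimate of each of the 10 genes with its 95% confidence interval in 3 comparisons, and dotted lines at the size limit of 1 in either direction. The interval of Irak3 by imiquimod, 0.36 to 0.96, excluded 0 but lay under the limit, and that of Tlr4, −0.18 to 2.59, was the widest by imiquimod.

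Unc93b1 (ENSMUSG00000036908), the carrier of endosomal receptors on chromosome 19 (3935186 to 3949340, plus strand), had a nearly even level of 54.2, 57.6 and 56.7 CPM in VAS+H2O. IMQ+H2O had 50.7, 89.5 and 67.0 CPM, and IMQ+XYF had 45.0, 44.4 and 63.9 CPM. IMQ+H2O replicate 2 was the highest of all libraries, as it was for Tlr8 and Tlr9. Across the 9 libraries, log2 CPM of Unc93b1 had a Pearson r of 0.833 with Tlr9, 0.775 with Tlr8, 0.31 with Tlr7 and 0.273 with Tlr3, which is a description over libraries that share treatment groups. Its log2 fold change was 0.30 by imiquimod (interval −0.18 to 0.78, edgeR adjusted p = 0.447) and −0.43 by XYF (interval −0.91 to 0.05, edgeR adjusted p = 0.453).

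Myd88 (ENSMUSG00000032508), the adaptor on chromosome 9 (119335934 to 119341411, minus strand), had 49.5, 67.7 and 70.3 CPM in VAS+H2O, 69.3, 74.0 and 79.6 CPM in IMQ+H2O, and 88.7, 69.2 and 84.4 CPM in IMQ+XYF. VAS+H2O replicate 1 was the lowest library. The highest VAS+H2O library lay just above the lowest of each imiquimod group, and the IMQ+H2O range lay inside that of IMQ+XYF. The log2 fold change was 0.25 by imiquimod (SE 0.15, interval −0.10 to 0.60, edgeR adjusted p = 0.378), 0.12 by XYF (interval −0.23 to 0.47) and 0.37 in the treated group against the control (interval 0.02 to 0.72, edgeR adjusted p = 0.240). Acaa1a, on the opposite strand, shares 290 bases of exon with Myd88 and had 60.6 to 101 CPM. Whether the counting used the strand is not given in the sources used here, so reads from the shared bases cannot be assigned.

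Irak3 (ENSMUSG00000020227) encodes IRAK-M, a member of the IRAK family known as a brake on TLR signalling in monocytes and macrophages, and lies on chromosome 10 from 120141648 to 120202130. It had 23.9, 29.7 and 29.2 CPM in VAS+H2O, 38.4, 41.8 and 50.7 CPM in IMQ+H2O, and 36.6, 41.1 and 39.9 CPM in IMQ+XYF. All 6 imiquimod libraries were above all 3 control libraries, and the groups with imiquimod overlapped each other. By imiquimod Irak3 was the 1 gene of the 10 whose groups did not overlap. Its mean was 43.6 ± 6.33 against 27.6 ± 3.22 CPM (SD, n = 3), a 1.58-fold higher level. On the log2 scale the difference was 0.66 (SE 0.13), with an interval from 0.36 to 0.96, which lies under the size limit for a call. Its edgeR adjusted p was 0.0540, and it ran from 0.000781 with DESeq2 to 0.159 without IMQ+H2O replicate 3 over the alternatives. The treated group against the control gave 0.51 (interval 0.21 to 0.81, edgeR adjusted p = 0.0885), again without overlap. By XYF the value was −0.15 (interval −0.45 to 0.15, edgeR adjusted p = 0.655). Summed inflammatory monocyte markers and summed neutrophil markers were higher in the same 6 libraries. The monocyte markers summed to between 30.9 and 41.0 CPM in VAS+H2O, 79.9 and 161 CPM in IMQ+H2O, and 65.6 and 99.5 CPM in IMQ+XYF, and their part in the Irak3 values was not tested. Tmbim4, on the opposite strand, shares 192 bases of exon with Irak3 and had 22.9 to 32.6 CPM, overlapping in every group, and the antisense gene Gm47009 shares 28 bases and had at most 0.722 CPM.

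Irf5 (ENSMUSG00000029771), the transcription factor on chromosome 6 (29526625 to 29541871, plus strand), had 16.5, 23.5 and 21.1 CPM in VAS+H2O and 20.9, 19.2 and 21.3 CPM in IMQ+H2O, so that the control and imiquimod means were 20.4 ± 3.58 and 20.4 ± 1.11 CPM (SD, n = 3). IMQ+XYF had 14.3, 13.8 and 20.7 CPM, with replicates 1 and 2 below every other library. The log2 fold change was 0.00 by imiquimod (interval −0.42 to 0.43, edgeR adjusted p = 0.994) and −0.33 by XYF (interval −0.76 to 0.10, edgeR adjusted p = 0.507). The interval by imiquimod excludes a change of 1 on the log2 scale in either direction. Tnpo3, on the opposite strand, shares 411 bases of exon with Irf5 and had 51.6 to 78.6 CPM.

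Other genes of TLR signalling and of imiquimod sensing were taken from a list of 61 genes, of which 60 were tested. Tlr12 was not, with at most 14 counts a library. By imiquimod 1 of the 60 was called by edgeR, Slc15a3, and 12 were higher and 3 lower at an unadjusted p under 0.05, against the background shares above. By XYF 0 of 60 were called by edgeR and 0 by DESeq2, with 2 higher and 4 lower at an unadjusted p under 0.05, and the treated group against the control had 0 called by edgeR, 1 by DESeq2 (Tlr1) and 8 higher and 3 lower. The median log2 fold change of the 60 genes was 0.08, −0.05 and 0.06 in these comparisons. Slc15a3, a carrier of peptides and histidine in endolysosomes, rose from 14.6, 12.0 and 15.0 CPM in VAS+H2O to 25.1, 37.2 and 37.1 CPM in IMQ+H2O, and had 23.9, 21.1 and 34.7 CPM in IMQ+XYF. Every imiquimod library was above every control library. Its log2 fold change by imiquimod was 1.26, its SE 0.22 (edgeR adjusted p = 0.0407, from 2.32e-05 with DESeq2 to 0.145 over the alternatives). The call was lost without VAS+H2O replicate 1, 2 or 3 (edgeR adjusted p = 0.0882, 0.117 and 0.112) and without IMQ+H2O replicate 2 or 3 (0.120 and 0.145), with log2 fold changes from 1.16 to 1.31. By XYF it was −0.32 (edgeR adjusted p = 0.573).

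The remaining receptors split by direction. Tlr1, a partner of TLR2, had the highest log2 fold change among them by imiquimod, 1.69, with a standard error of 0.38 (edgeR adjusted p = 0.0680, from 0.000592 with DESeq2, which called it, to 0.198). It had 3.95, 1.92 and 1.89 CPM in VAS+H2O, 4.96, 12.0 and 7.96 CPM in IMQ+H2O, and 6.31, 7.40 and 7.06 CPM in IMQ+XYF, without overlap with the control. Tlr11, a receptor for parasite profilin, had the lowest, −1.24 (edgeR adjusted p = 0.172), at 0.351 to 1.24 CPM in those 2 groups. Tlr5, the flagellin receptor, was chosen after its values were seen. It had 12.9, 19.5 and 17.4 CPM in VAS+H2O, 9.75, 11.3 and 11.4 CPM in IMQ+H2O and 8.15, 9.07 and 8.72 CPM in IMQ+XYF, and each group lay below the one before it. In the treated group against the control its log2 fold change was −0.94, under the size limit, with an edgeR adjusted p of 0.0367 (from 6.75e-05 to 0.130 over the alternatives), and without VAS+H2O replicate 1 it was −1.09 and called (edgeR adjusted p = 0.0237).

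Of the genes listed as co-receptors, Cd14, Lbp, Cd36 and Ly96 help TLRs bind lipids and lipopolysaccharide, and Ly86 and Cd180 were listed with them. All 6 had positive fitted changes by imiquimod, from 0.15 for Cd180 to 1.34 for Cd14, with a median log2 fold change of 0.61, and 3 of them were higher at an unadjusted p under 0.05. Cd14 had 10.7, 30.6 and 12.2 CPM in VAS+H2O, 26.4, 44.8 and 63.7 CPM in IMQ+H2O and 29.6, 18.0 and 40.4 CPM in IMQ+XYF, and its change was not called (edgeR adjusted p = 0.170). Lbp, whose product carries lipopolysaccharide, had a log2 fold change of 0.98 by imiquimod, under the size limit, at an edgeR adjusted p of 0.0495 (from 0.000227 with DESeq2 to 0.153), and was named after its values were seen. At 1.01 Lbp passed the size limit and was called with DESeq2, with DESeq2 size factors, with only the 2 groups compared and without IMQ+XYF replicate 2. By XYF all 6 had negative fitted changes with a median of −0.54, and 3 were lower at an unadjusted p under 0.05, Ly86, Cd36 and Cd180, again named after their values were seen. Ly86 had 10.2, 19.2 and 12.9 CPM in IMQ+H2O and 7.50, 8.09 and 8.02 CPM in IMQ+XYF, with a log2 fold change of −0.84 (edgeR adjusted p = 0.363, from 0.0290 with DESeq2 to 0.617). Both comparisons use the IMQ+H2O libraries. By imiquimod 7 of 10 macrophage markers had positive fitted changes, with a median of 0.52 and a lowest value of −0.34. By XYF all 10 were negative, as given above for Tlr9. Endothelial markers were positive for 6 of 6 by imiquimod and negative for all by XYF, with median log2 fold changes of 0.84 and −0.61. They summed to between 554 and 815 CPM in VAS+H2O, 1195 and 1245 CPM in IMQ+H2O, and 472.5 and 1132 CPM in IMQ+XYF. The part of either in the co-receptor values was not tested.

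**Figure D4:**
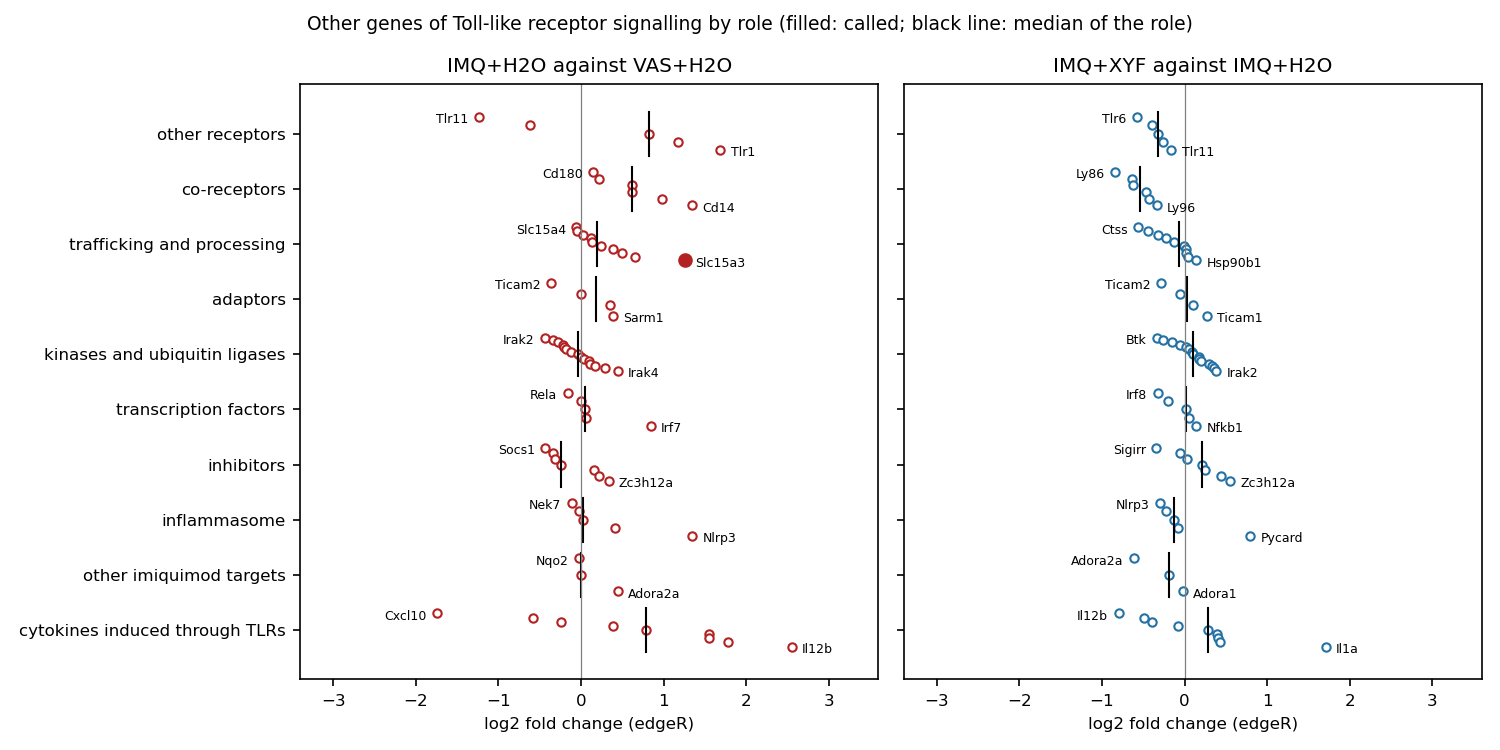
The plot of other pathway genes by role gives edgeR log2 fold changes for the change by imiquimod and the change by XYF, with a circle per gene, a filled circle for a called gene, and a black line at the median of each role. Slc15a3 at 1.26 is the filled circle, and the co-receptors lie above 0 by imiquimod and below 0 by XYF.

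Intracellular steps of the pathway were taken by role. Of the 15 kinases and ubiquitin ligases, fitted changes by imiquimod ran from −0.44 for Irak2 to 0.45 for Irak4, kinases of the MYD88 relay, with edgeR adjusted p-values of 0.154 and 0.129, and the median was −0.03. Irak2 had 20.8, 18.5 and 16.0 CPM in VAS+H2O, 15.0, 12.6 and 13.1 CPM in IMQ+H2O and 16.7, 15.7 and 20.5 CPM in IMQ+XYF. The 4 other adaptors ran from −0.37 for Ticam2 to 0.38 for Sarm1, and the 10 genes of trafficking and processing from −0.06 for Slc15a4 to the 1.26 of Slc15a3. Among 5 transcription factors, Irf7, which drives interferon genes, had 0.84 (edgeR adjusted p = 0.293) and Rela, a subunit of NF-kB, had −0.16. Irf7 had 89.9, 24.4 and 103 CPM in VAS+H2O and 120, 140 and 130 CPM in IMQ+H2O, with VAS+H2O replicate 2 far below the rest. The 7 inhibitors ran from −0.43 for Socs1 to 0.33 for Zc3h12a, with a median of −0.24, so that by imiquimod the Irak3 estimate of 0.66 was above each of theirs. In the treated group against the control this list reached 0.88, above the 0.51 of Irak3. Imiquimod also acts through the NLRP3 inflammasome, adenosine receptors and quinone oxidoreductases. Nlrp3 had 0.995, 5.48 and 0.951 CPM in VAS+H2O and 4.03, 4.97 and 9.54 CPM in IMQ+H2O, a log2 fold change of 1.34 (edgeR adjusted p = 0.287). For Nlrp3 this was 2.67 without VAS+H2O replicate 2 (edgeR adjusted p = 0.0691) and 0.90 without IMQ+H2O replicate 3, and neither was called. Nek7, which helps NLRP3 assemble, had −0.12. Adora2a had 0.44 and Nqo2 had −0.02.

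Cytokines that TLRs induce were given by counts. Of 10 listed, 9 were tested, since Ifnb1, the interferon beta gene, had at most 6 counts a library. None was called by edgeR in any comparison, with 1 higher and 1 lower at an unadjusted p under 0.05 by imiquimod, 0 and 0 by XYF, and 3 and 1 in the treated group against the control. DESeq2 called 1, 0 and 2 of them. The median log2 fold change was 0.79 by imiquimod and 0.28 by XYF.

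Leukocytes that carry these receptors were followed through their markers. Of 8 tested neutrophil markers 4 were called higher by imiquimod, where edgeR called 0.994% of all tested genes. Their fitted changes were positive for 7 of 8, and the lowest was −1.01. The 10 listed summed to between 6.65 and 22.6 CPM in VAS+H2O, 208 and 663 CPM in IMQ+H2O, and 172 and 477 CPM in IMQ+XYF. S100a8 and S100a9 were the largest parts of each sum in the imiquimod libraries. Ly6g was not tested, with 0 counts in VAS+H2O, 3, 4 and 32 in IMQ+H2O, and 14, 0 and 29 in IMQ+XYF. Of 6 inflammatory monocyte markers 2 were called higher by imiquimod, against the same 0.994%. Macrophage markers had 0 of 10 called in any comparison by edgeR, with 5 higher by imiquimod and 4 lower by XYF at an unadjusted p under 0.05, and DESeq2 called 2 by imiquimod and 0 by XYF. Plasmacytoid dendritic cell markers, a source of interferon after TLR7 and TLR9 ligation, had 0 of 8 tested genes called by edgeR and 2 lower at an unadjusted p under 0.05 by imiquimod. The list went both ways by imiquimod, with 4 of 8 fitted changes positive, a median log2 fold change of 0.13 and a range from −0.97 to 0.60. The 10 listed genes summed to between 317.7 and 473 CPM in VAS+H2O, 345 and 383 CPM in IMQ+H2O, and 292 and 396 CPM in IMQ+XYF, which overlap. Most of each sum came from Tcf4 (165 to 289 CPM) and Bst2 (20.6 to 135 CPM), so the overlap says little of the other listed genes. Siglech, 1 of the 2 lower genes beside Tcf4 (−0.54), was looked at after its values were seen. It had 1.29, 1.83 and 1.96 CPM in VAS+H2O, 1.10, 0.655 and 0.917 CPM in IMQ+H2O and 0.448, 0.895 and 0.422 CPM in IMQ+XYF, below the control in all 6 imiquimod libraries. Its log2 fold change was −0.93 by imiquimod (interval −1.77 to −0.09, edgeR adjusted p = 0.200) and −1.54 in the treated group against the control (interval −2.38 to −0.69, edgeR adjusted p = 0.0736, from 0.00504 with DESeq2, which called it, to 0.210). Without IMQ+XYF replicate 2, the latter was −1.91 and called by edgeR as well (adjusted p = 0.0210). The part of these cells in the receptor levels was not tested.

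Markers of other tissue also moved between groups, and their part in the values was not tested either. By imiquimod, 5 of 5 tested cartilage markers were lower at an unadjusted p under 0.05 (Col2a1 called by edgeR, 5 called by DESeq2) and 4 of 6 endothelial markers were higher (0 called by either tool). All 5 cartilage markers were apart downward and all 6 endothelial markers upward, against 16.5% and 15.1% of all tested genes. The background shares of calls and of unadjusted p-values are those given above for each comparison. By XYF, 5 of 5 cartilage and 5 of 6 keratinocyte markers were higher and 5 of 6 skeletal muscle markers were lower at an unadjusted p under 0.05, with 0 called by edgeR and 3, 2 and 1 by DESeq2. All 6 endothelial markers had negative fitted changes by XYF, 2 of them at an unadjusted p under 0.05 and 0 called by either tool. Of the 6, 4 were apart downward, against 8.74% of all tested genes. Fibroblast, fat cell, mast cell, T cell, B cell, Langerhans cell and conventional dendritic cell lists had at most 2 markers in a direction at an unadjusted p under 0.05 in any comparison. Of these, edgeR called Ccr7, a homing receptor of migrating dendritic cells, higher in IMQ+H2O and in IMQ+XYF against VAS+H2O, with log2 fold changes of 2.86 and 2.87 (edgeR adjusted p = 0.0314 and 0.0309). DESeq2 called Ccr7 in the same comparisons and 3 more of these markers, named after their values were seen. They were Xcr1, a receptor of cross-presenting dendritic cells, lower by imiquimod, Fabp4, a lipid carrier listed for fat cells, higher by imiquimod, and Ms4a2, a chain of the mast cell IgE receptor, lower by XYF and in the treated group against the control. By imiquimod the fat cell list went both ways, with 3 of 5 fitted changes positive, a median of 0.08 and a lowest value of −0.56. The conventional dendritic cell list did so too, with 5 of 7 positive and a median of 0.27. IMQ+XYF replicate 1, where keratinocyte markers were highest, also had the lowest Tlr3 and Tlr2 levels of the 9 libraries.

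**Figure D5:**
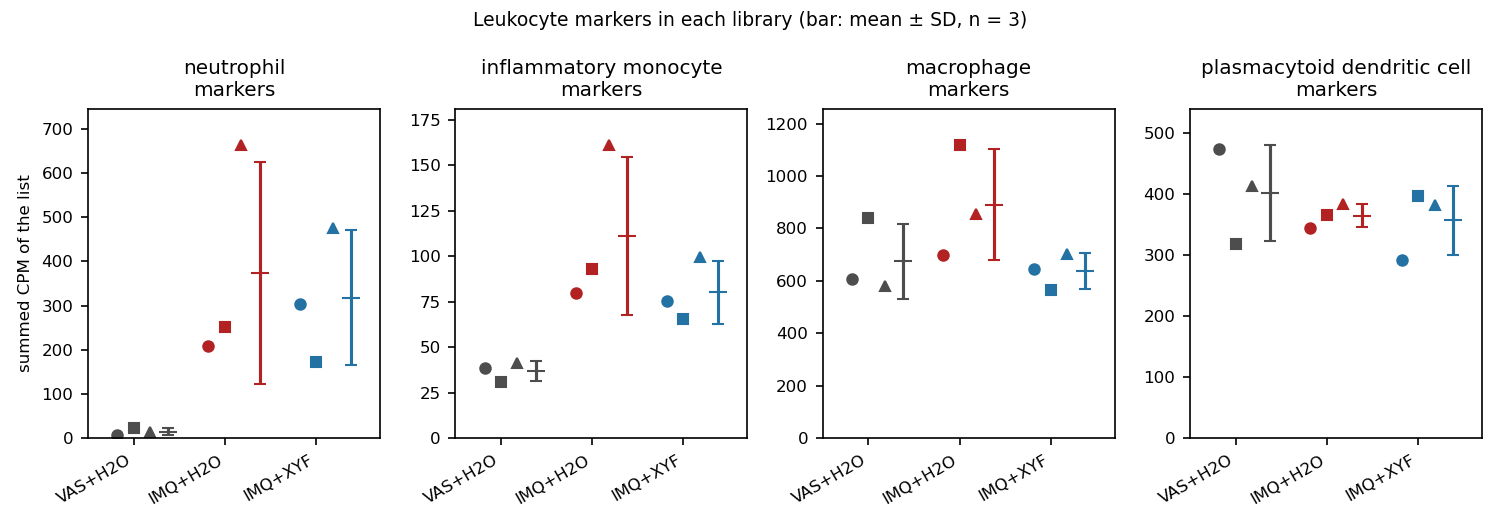
The plot of leukocyte markers gives the summed CPM of the neutrophil, inflammatory monocyte, macrophage and plasmacytoid dendritic cell lists in each library, with bars at the mean ± SD (n = 3). Neutrophil sums were at most 22.6 CPM in VAS+H2O and at least 172 CPM in the imiquimod groups. The plasmacytoid dendritic cell sums of all 3 groups overlapped, and most of each came from Tcf4 and Bst2.

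The genes whose log2 CPM over the 9 libraries was most like that of Tlr7, among tested genes with a mean of at least 1 CPM, were Klhdc8a with a Pearson r of 0.951, Wfikkn1 with 0.891, Slc46a3 and Egflam with 0.876, and Klhl7 with 0.869. For Tlr8 they were Il13ra2 with 0.946, Akr1c13 with 0.937, Creld1 with 0.934, Mrgprx2 with 0.928 and Gpr65 with 0.927. These are descriptions over 9 libraries that share groups and were selected from all tested genes. Among the 10 genes themselves, Tlr2 and Tlr4 had the most negative r, −0.768.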

How the data were processed

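RNA from the dermis of mouse ears was sequenced in 9 libraries, 3 in each of 3 groups (VAS+H2O, IMQ+H2O, IMQ+XYF). The deposited table holds whole-number read counts per Ensembl gene, which the authors did not normalize. Per the study's methods the reads were aligned with STAR to GRCm38, and the submitters' processing notes name STAR 2.5, Cuffnorm and DESeq 1.22.1. The counting tool, its use of the strand and its handling of multiply aligned reads are not given in the sources used here. The labels call the libraries strand-specific.

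Counts were analysed here with edgeR 4.0.16 in R 4.3.3. Low genes were removed with filterByExpr, which left 22430 genes, libraries were scaled by TMM, and all 9 entered 1 quasi-likelihood fit (common biological coefficient of variation 0.296). Calls needed a Benjamini-Hochberg adjusted p over all tested genes of 0.05 or lower and an absolute log2 fold change of 1 or higher, as the study set them. Its own tool, DESeq2 (here version 1.42.0), served as an alternative. The steps were tested on simulated data. Standard errors were derived from the log2 fold change and its F statistic. Pearson r used log2 CPM with a prior count of 2. Alternatives were the DESeq2 Wald test, DESeq2 size factors, no filter, only the 2 groups compared, a replicate block, adjusted p without a size limit, an adjusted p of 0.01, and leaving out each library.

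The text names all 10 genes, pathway genes that were called, and by role those with the largest and smallest change by imiquimod. Other names are said to be chosen after their values were seen. For likeness, the 5 genes of highest r were named, without Gm or Rik symbols. The 10 genes and the lists were chosen with earlier results of these data known. Of 179 listed genes, 178 matched by symbol and 1 by another name. Coordinates are from GENCODE vM21 on GRCm38.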

Additional observations from a re-analysis of the deposited data

How the results depend on the processing

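No member was called under any alternative except Tlr4, called in both comparisons with VAS+H2O once VAS+H2O replicate 1 was left out, so that the count of members called ran from 0 to 1 by imiquimod and in the treated group against the control, and was 0 throughout by XYF. Of 480 values of the 10 genes over the alternatives, 468 kept their direction and their side of the limits, 2 were called in addition (Tlr4) and 10 changed sign. The values without a size limit and those at an adjusted p of 0.01 were not refitted. They reused the main fit and could not change sign, and at 0.01 no call could be gained, so the kept values overstate the stability. The sign changes were those of small values. By imiquimod, over fits without 1 library, Tlr9 ran from −0.14 (without IMQ+H2O replicate 2) to 0.32, Tlr3 from −0.56 to 0.072 (without VAS+H2O replicate 3) and Irf5 from −0.13 (without VAS+H2O replicate 1, and below 0 also without IMQ+H2O replicate 1 or 3) to 0.12, and Irf5 was −0.005 without the filter. By XYF, Tlr3 ran from −0.35 to 0.11 (without IMQ+XYF replicate 1). In the treated group against the control, Tlr8 ran from −0.16 (without VAS+H2O replicate 1, and below 0 also without IMQ+XYF replicate 3) to 0.30, and Unc93b1 from −0.33 to 0.004 (without IMQ+XYF replicate 2). Of 416 values of named pathway genes over the same alternatives, with the same limit, 392 kept direction and side, 10 gained a call, 7 lost one (Slc15a3) and 7 changed sign. The last were Slc15a4 by imiquimod, from −0.088 to 0.002 (without VAS+H2O replicate 2), and Nqo2, from −0.233 to 0.082 over fits without 1 library, with 0.001 under DESeq2, 0.005 with its size factors and 0.007 with only the 2 groups.

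The count of pathway genes called by imiquimod was 1, and it was 3 with DESeq2, 2 with its size factors, 2 with only the 2 groups, 2 without a size limit and 0 at an adjusted p of 0.01. It ran from 0 to 2 over the fits that each left out 1 library, and for the treated group against the control, with 0 called, from 0 to 1. There DESeq2 called 1 and the adjusted p without a size limit 2. Over all genes, 223 were called by imiquimod, 2 by XYF and 270 in the treated group against the control. These were 949, 225 and 743 with DESeq2, and 496, 1 and 33 with only the 2 groups compared. Without a size limit the treated group had 453, and at an adjusted p of 0.01 the counts were 13, 0 and 1. Leaving out 1 library gave 25 (without IMQ+H2O replicate 3) to 455 (without IMQ+XYF replicate 2) by imiquimod, 0 to 4 by XYF, and 12 (without VAS+H2O replicate 2) to 592 (without IMQ+XYF replicate 2) in the treated group. The cause of these shifts was not tested.

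The replicate numbers did not pair the libraries. Deviations of same-numbered libraries from their group means correlated with r from −0.183 to 0.125, and 1 of 9 libraries correlated best with its own number. With a replicate block, 86, 0 and 54 genes were called, with 0 of the 10 members and 0 pathway genes, Slc15a3 having an edgeR adjusted p of 0.0630.

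With 3 libraries a group, a change whose interval included 0 could not be told from 0. The intervals that excluded 0 were not adjusted for the number of genes tested. Tlr7, Tlr8 and Tlr9 rest on 49 to 247 counts a library.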
